A study of Mus musculus with 2 samples.

Results

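Transcripts of 9 genes for transcription factors that pattern the embryonic forebrain (Emx1, Emx2, Lhx2, Dmrta2, Otx1, Otx2, Six3, Nr2f1 and Nr2f2) were counted in nuclei of the whole fetal mouse brain. The 9 were found by symbol among the 55416 features that both count matrices list, and all 9 had UMIs in both libraries. A UMI, or unique molecular identifier, is a tag that lets copies of the same captured RNA be counted once. Single nuclei from frozen whole brain were processed with 10x Genomics droplet capture and 3′ counting, for 1 wildtype library and 1 library labelled Cav1 knockout. Cav1 encodes caveolin 1, a coat protein of caveolae. Both samples are described as whole brain of fetal age. The strain, the gestational day, the sex, the way Cav1 was inactivated and the number of fetuses behind each library are not given in the sources used here. With 1 library per genotype no difference between the libraries has a replicate check, no test was made, and every interval below is a 95% interval for counting error only.

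The forebrain is divided into territories by transcription factors that progenitors express in gradients and blocks along the axes of the early brain. Emx1, Emx2, Lhx2 and Dmrta2 belong to the dorsal telencephalon, from which the cerebral cortex arises, and Emx2, Dmrta2 and Nr2f1 are known for their graded expression across the cortical field, where they bias the position of cortical areas. Otx1 and Otx2 define the anterior neural plate, Six3 its most anterior part, and Nr2f1 and Nr2f2 (COUP-TFI and COUP-TFII) are orphan nuclear receptors of caudal and ventral forebrain domains, the thalamus and, for Nr2f2, vessels and mesenchyme.

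The sequence just before the annotated start of each gene was read from GRCm39, the build that the submitters' processing notes name, with gene starts from GENCODE release M39. Shown are the 250 bases before the start of Emx1 (chr6:85164170-85164419, plus strand), Lhx2 (chr2:38229043-38229292, plus strand), Emx2 (chr19:59446554-59446803, plus strand) and Dmrta2 (chr4:109834952-109835201, plus strand). Emx1 with Lhx2 and Emx2 with Dmrta2 are shown because their levels moved together across clusters. Capitals mark a CCAAT box (CCAAT on either strand) or a GC box (GGGCGG on either strand), basal promoter elements.
Emx1: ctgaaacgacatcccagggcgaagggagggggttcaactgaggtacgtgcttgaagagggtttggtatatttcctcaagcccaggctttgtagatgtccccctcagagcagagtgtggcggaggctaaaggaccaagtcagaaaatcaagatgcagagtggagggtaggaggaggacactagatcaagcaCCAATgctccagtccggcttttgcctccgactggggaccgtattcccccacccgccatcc
Lhx2: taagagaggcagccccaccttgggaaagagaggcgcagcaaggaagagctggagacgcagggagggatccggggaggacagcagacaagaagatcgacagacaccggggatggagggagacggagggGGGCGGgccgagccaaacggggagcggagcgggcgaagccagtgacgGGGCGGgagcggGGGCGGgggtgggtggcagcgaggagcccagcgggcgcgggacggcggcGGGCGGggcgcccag
Emx2: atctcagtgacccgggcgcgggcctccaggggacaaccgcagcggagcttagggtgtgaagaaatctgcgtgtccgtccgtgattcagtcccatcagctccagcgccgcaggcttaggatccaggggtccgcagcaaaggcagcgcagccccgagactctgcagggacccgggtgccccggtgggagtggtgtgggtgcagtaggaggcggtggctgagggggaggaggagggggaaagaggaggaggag
Dmrta2: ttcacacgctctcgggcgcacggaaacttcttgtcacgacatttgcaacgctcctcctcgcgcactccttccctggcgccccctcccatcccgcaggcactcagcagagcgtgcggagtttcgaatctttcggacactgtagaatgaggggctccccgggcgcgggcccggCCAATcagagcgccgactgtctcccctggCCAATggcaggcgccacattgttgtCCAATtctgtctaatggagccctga
The GC content of the 9 windows ran from 48.8% for Nr2f2 to 72.8% for Lhx2, against a median of 51.2% over the windows of 21770 protein-coding genes. A CCAAT box stood in 5 of 9 windows, against 36.1% of all windows, with 3 copies before Dmrta2, and a GC box in 2 of 9, against 29.9%, with 4 copies before Lhx2. The homeodomain core TAATTA was in 0 of 9 windows (5.68% of all), the core GGATTA known from Otx-type homeodomains in 1 of 9, that of Nr2f2 (7.70% of all), and the nuclear receptor half-site AGGTCA in 0 of 9 (13.9% of all). Both strands were searched and no matches overlapped. A match is a description of letters, and a window without one says nothing of binding elsewhere.

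Nuclei were kept with at least 500 detected genes and at most 5% mitochondrially encoded UMIs, which left 6686 nuclei with 17205381 UMIs in the wildtype-labelled library and 6680 nuclei with 19878903 UMIs in the knockout-labelled library. The median kept nucleus had 2133.5 and 2366 UMIs. Cav1 itself had 71 and 80 UMIs, so its count did not separate the genotypes and the libraries are named by their labels. Since 3′ ends were counted and the deleted part of Cav1 is not given in the sources used here, this count may not bear on the knockout. The matrices shared 43 barcodes, 10 of them among kept nuclei. The 8% of nuclei with the highest doublet scores were left out of cell typing, and 6151 and 6146 nuclei were grouped into 25 clusters without use of the 9 genes or their antisense neighbours. Clusters were named from marker lists that hold none of the 9 genes, and 12 classes had at least 30 nuclei in each library. The cortical excitatory neuron-like class held 23.9% of typed nuclei with the wildtype label and 17.1% with the knockout label, and the neuron-like class 13.0% and 20.4%. The main cluster of the latter, cluster 0, also passed 4 of 8 Cajal-Retzius cell, 4 of 9 midbrain and hindbrain inhibitory neuron and 3 of 8 midbrain excitatory neuron markers. Clusters 1 and 11, with a median of 742 and 706 UMIs per nucleus in the respective libraries, stayed unnamed and held 10.5% and 15.8%.

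Emx1 and Lhx2 were highest in intermediate progenitor-like nuclei, the Eomes-positive stage between radial glia and cortical neurons. Fewer than 3 of the 10 dividing cell markers passed in this cluster. Emx1 (chr6:85164420-85181444), a homeobox gene of the cortical primordium, had 57 UMIs there with the wildtype label and 46 with the knockout label (values are given in this order from here on), which is 73.6 CPM (the gene's share of the UMIs of the class on the usual CPM scale; interval 55.7 to 95.3) and 76.1 CPM (55.7 to 102). Radial glia-like nuclei followed in the wildtype-labelled library with 28.5 CPM (21.3 to 37.3), and had 23.8 CPM (17.3 to 32.0) in the other. Emx1 in the progenitor class stood above the radial glia-like class by more than counting error in each library, but not above its cluster 6 alone, at 44.8 CPM (32.3 to 60.6) and 53.0 CPM (36.7 to 74.1), whose intervals overlapped those of the progenitors. A UMI of Emx1 was found in 12.8% and 14.7% of intermediate progenitor-like nuclei, against 1.61% and 0.571% of thalamic neuron-like nuclei, a type outside the telencephalon, although the latter were deeper (median 2754 and 3390 UMIs, against 1842 and 2043.5). With every nucleus thinned to 1000 UMIs, leaving out shallower nuclei, the shares were 7.38% and 6.98% against 0.407% and 0.578%. In forebrain inhibitory neuron-like, midbrain and hindbrain inhibitory neuron-like and neuron-like nuclei Emx1 lay between 5.43 and 6.76 CPM in either library, and in thalamic neuron-like nuclei it had 4.88 and 1.29 CPM from 4 and 1 UMIs.

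Lhx2 (chr2:38229293-38259759), a LIM homeobox gene required for cortical identity, had 212 and 154 UMIs in intermediate progenitor-like nuclei, or 274 CPM (238 to 313) and 255 CPM (216 to 298). Its next highest class lay outside the telencephalon. Midbrain excitatory neuron-like nuclei, led by Barhl1, Tfap2d and Pou4f1, had 162 CPM (128 to 201) and 234 CPM (201 to 271). In the wildtype-labelled library this was level with thalamic neuron-like nuclei at 144 CPM (119 to 172) and radial glia-like nuclei at 131 CPM (115 to 149), whose intervals overlapped it, and in the knockout-labelled library it was level with the progenitor class. Forebrain inhibitory neuron-like nuclei were low, at 40.7 and 37.4 CPM. A UMI of Lhx2 was present in 36.8% and 36.3% of intermediate progenitor-like nuclei and in 7.58% and 7.24% of forebrain inhibitory neuron-like nuclei (median 1735 and 1980 UMIs).

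Emx2 and Dmrta2 shared their highest class, the small Cajal-Retzius cell-like cluster of 32 and 34 nuclei led by Trp73 and Reln. Emx2 (chr19:59446804-59453789), a homeobox gene that promotes caudal and medial cortical fates, was counted there with 23 and 29 UMIs, that is 237 CPM (150 to 355) and 217 CPM (145 to 312). Dmrta2 (chr4:109835202-109840884), a DM-domain factor of the caudomedial cortex, was counted with 12 and 16 UMIs, that is 123 CPM (63.8 to 216) and 120 CPM (68.5 to 195). Emx1 in the same cluster had 0 UMIs in the wildtype-labelled library, where a count of 0 allows up to 3 UMIs or 30.9 CPM, and 4 UMIs in the knockout-labelled library. The next class differed for each gene. For Dmrta2 it was the intermediate progenitor-like class with 58.1 CPM (42.4 to 77.7) and 43.0 CPM (28.1 to 63.0). Its interval overlapped that of the Cajal-Retzius cell-like cluster under the wildtype label. Radial glia-like cluster 6, with 55.5 CPM (41.4 to 72.8) and 73.3 CPM (53.8 to 97.4) of Dmrta2, overlapped the Cajal-Retzius cell-like cluster in both libraries. For Emx2 it was the midbrain and hindbrain inhibitory neuron-like class, led by Pax7, Dmbx1 and Sox14, with 89.7 CPM (64.1 to 122) and 83.4 CPM (56.3 to 119). Dmrta2 was low in that inhibitory class, with 7 and 4 UMIs. Nuclei with an Emx2 UMI made up 43.8% and 58.8% of the Cajal-Retzius cell-like cluster (median 2971 and 3600 UMIs) and 3.21% and 4.0% of thalamic neuron-like nuclei.

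Otx2 (chr14:48894099-48911276), known for its roles in the anterior neuroectoderm, the midbrain and the choroid plexus, had its highest levels in a pair of classes. The midbrain and hindbrain inhibitory neuron-like class held 235 and 150 of its UMIs, or 527 CPM (462 to 599) and 417 CPM (353 to 490). In choroid plexus epithelium-like nuclei, 34 and 31 in number, 49 and 61 UMIs were counted, or 479 CPM (354 to 633) and 732 CPM (560 to 941). By number of UMIs, radial glia-like nuclei with 121 and 150 and neuron-like nuclei with 98 and 147 held a further 20.2% and 22.2%, and 16.4% and 21.7%, of the Otx2 UMIs counted over all clusters, unnamed ones included. The order of the inhibitory and choroid plexus epithelium-like classes was reversed between the libraries, with overlapping intervals in the wildtype-labelled library and separate ones in the other. An Otx2 UMI was found in 54.5% and 46.9% of the inhibitory class, in 73.5% and 77.4% of choroid plexus epithelium-like nuclei and in 1.36% and 1.90% of cortical excitatory neuron-like nuclei (median 2257 and 2478 UMIs, against 2133.5 and 2302 in the inhibitory class). Gm49156 and Gm534, which lie near Otx2, were not kept out of the clustering and were among the 10 leading genes of the inhibitory class. Otx2 itself and Otx2os1, both kept out of the clustering, were also among those leading genes. Otx1 (chr11:21944764-21952897), the relative of Otx2 in forebrain and cortical development, was instead highest in radial glia-like nuclei of the wildtype-labelled library with 48.2 CPM (38.6 to 59.3) and 37.9 CPM (29.6 to 47.9) in the knockout-labelled one, next to intermediate progenitor-like nuclei with 32.3 CPM (20.9 to 47.6) and 43.0 CPM (28.1 to 63.0). These progenitor classes did not differ in Otx1 beyond their intervals in either library.

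Six3 (chr17:85920640-85936730), a homeobox gene of the rostral forebrain and eye, was low in the cortical classes and higher in forebrain inhibitory neuron-like nuclei, with 71 and 82 UMIs, or 32.1 CPM (25.1 to 40.5) and 36.9 CPM (29.4 to 45.9). Intermediate progenitor-like nuclei held 1 and 3 Six3 UMIs. Most of the inhibitory signal came from cluster 2, led by Dlx6os1 and Dlx6, where Six3 had 60.4 CPM (46.3 to 77.5) and 59.1 CPM (46.3 to 74.3). Cluster 7, led by Lhx6, an interneuron marker, had 4 and 7 UMIs, 5.83 and 12.6 CPM. The choroid plexus epithelium-like class had the highest Six3 level by name, 48.9 and 48.0 CPM, but from 5 and 4 UMIs, and its intervals spanned those of the inhibitory class. The small neuron-like cluster 19, led by Ecel1 and Isl1, had 94.3 CPM (47.1 to 169) and 73.6 CPM (29.6 to 152) from 11 and 7 UMIs.

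The nuclear receptor genes divided the tissue differently from each other. Nr2f1 (chr13:78337092-78348578) was highest in thalamic neuron-like nuclei, at 483 CPM (437 to 533) and 423 CPM (378 to 471), and close behind in intermediate progenitor-like nuclei, at 448 CPM (402 to 498) and 414 CPM (364 to 468), which did not differ beyond the intervals. It was lowest among neuron classes in midbrain excitatory neuron-like nuclei in the knockout-labelled library, with 112 CPM (89.2 to 138), and in Cajal-Retzius cell-like nuclei in the wildtype-labelled library, with 113 CPM (56.5 to 202). Among the 12 classes, Nr2f2 (chr7:70001692-70016519) was highest in the fibroblast-like and Cajal-Retzius cell-like classes. Fibroblast-like nuclei had 327 CPM (255 to 412) and 347 CPM (277 to 429), and Cajal-Retzius cell-like nuclei 309 CPM (208 to 440) and 382 CPM (284 to 502). Mural cell-like nuclei, 28 and 30 in number and so outside the 12 classes, were level with these, at 360 CPM (220 to 557) and 325 CPM (189 to 520). Those values came from 20 and 17 UMIs. Endothelial cell-like nuclei were lower, with 140 CPM (85.3 to 216) and 91.2 CPM (51.0 to 150). Both genes reached a further peak in cluster 19, where Nr2f1 had 694 CPM (551 to 863) and 936 CPM, and Nr2f2 had 299.9 CPM (209 to 417) and 463 CPM (336 to 621). An Nr2f1 UMI was present in 67.9% and 65.7% of thalamic neuron-like nuclei and in 12.0% and 10.7% of endothelial cell-like nuclei (median 2469.5 and 2099 UMIs).

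**Figure D1:**
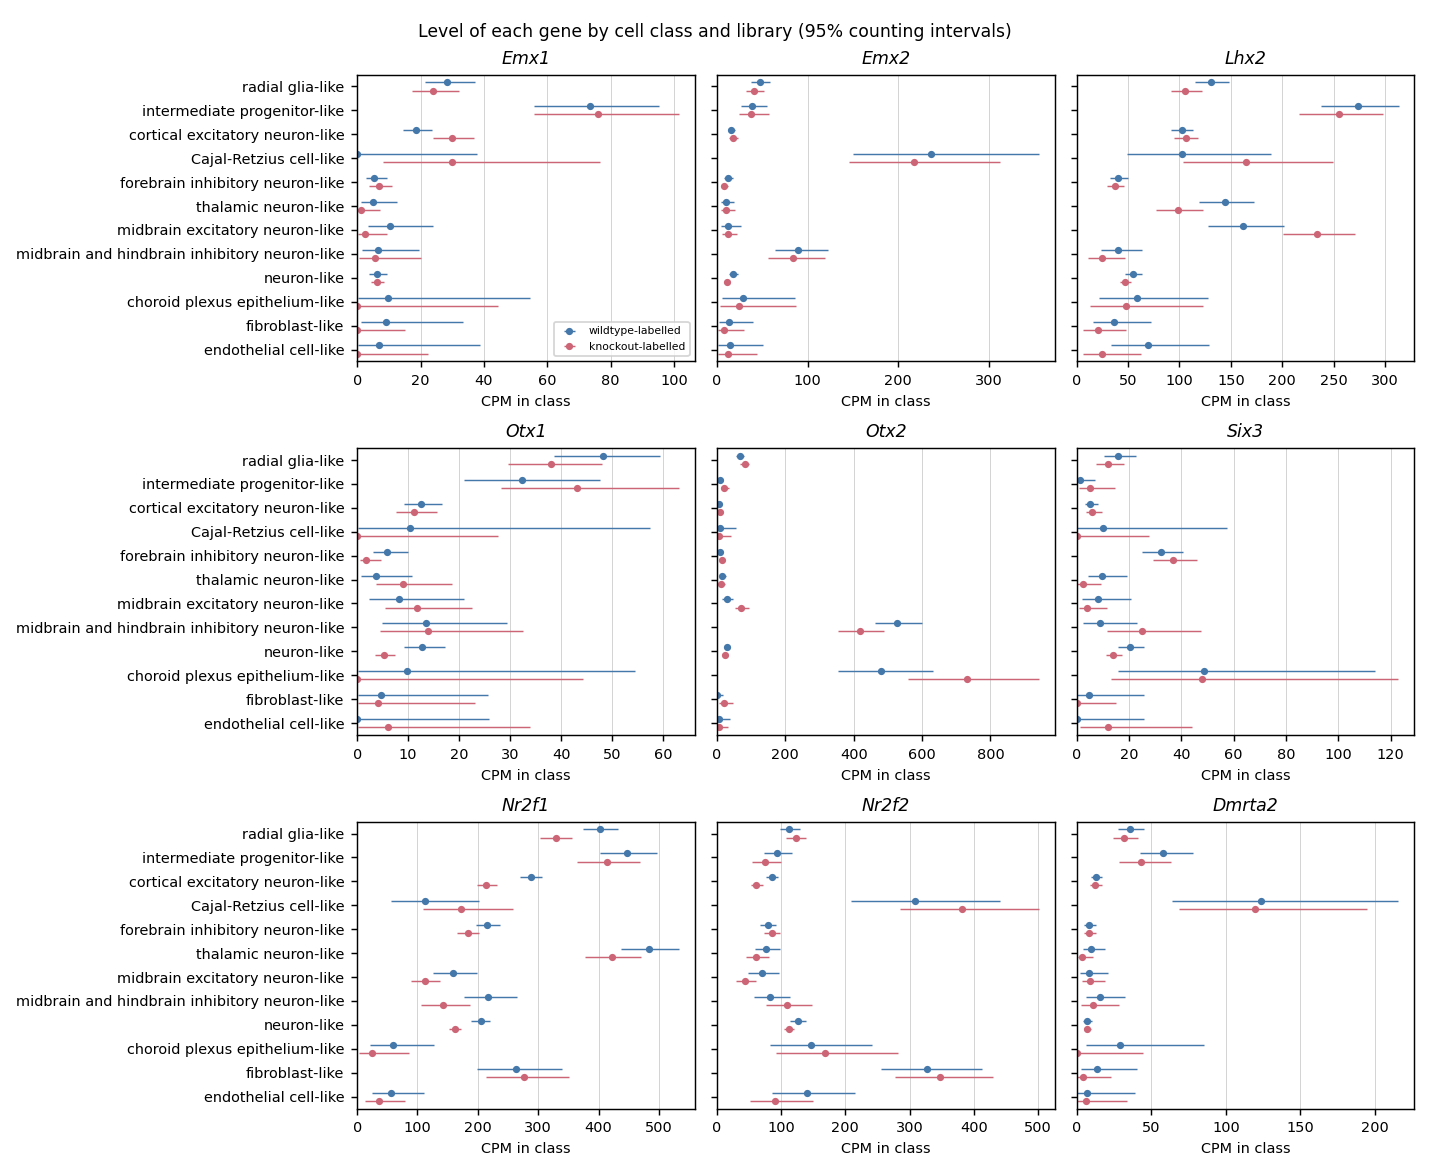
Level of each gene in CPM (horizontal axis, the gene's share of the UMIs of the class) in 12 cell classes; points are the wildtype-labelled (blue) and knockout-labelled (red) library and bars are 95% counting intervals. Emx1 and Lhx2 peak in intermediate progenitor-like nuclei, Emx2 and Dmrta2 in Cajal-Retzius cell-like nuclei, and Otx2 in midbrain and hindbrain inhibitory neuron-like and choroid plexus epithelium-like nuclei. Bars of the highest class overlap those of the next class in some cases, as for Dmrta2 under the wildtype label.

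The highest class was the same in both libraries for 6 of 9 genes, the exceptions being Otx1, Otx2 and Nr2f2, and in each of these the top classes exchanged places.

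Radial glia, the stem cells that line the ventricles, fell into 3 clusters that differed in the 9 genes. The 9 genes took no part in the clustering, but some nearby genes of similar pattern were not kept out of it. Among them were Gm49156 and Gm534 near Otx2, and Gm28258 and Gm44532 near Nr2f2, so the split was not independent of these loci. Cluster 6 (407 and 260 nuclei) was led by Dct, Creb5 and Tfap2c and had 524 and 502 CPM of Pax6, a dorsal progenitor gene. Cluster 10 (237 and 228 nuclei) was led by Ano1 and Pdzph1 and had 35.9 and 62.2 CPM of Nkx2-1, a ventral factor. Cluster 12 (179 and 254 nuclei) was led by Gm20757, Cyp26b1 and Pdlim3, with Pax3, Rspo2 and Wnt8b among its 10 leading genes, and had 48.0 and 49.6 CPM of Irx2 and 137 and 86.5 CPM of Lmx1a, genes of more caudal or midline domains. It passed 5 of 6 oligodendrocyte precursor markers as well as 8 of 11 radial glia markers, and was named by the larger number. Of 10 dividing cell markers, 9 passed in cluster 6, all 10 in cluster 10 and fewer than 3 in cluster 12. Their part in the differences between these clusters was not tested.

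The dorsal factors were high in cluster 6. Lhx2 had 207 CPM (179 to 238) and 209 CPM (175 to 247) there, 71.8 CPM (49.7 to 100.4) and 88.3 CPM (64.1 to 119) in cluster 10 and 26.4 CPM (13.2 to 47.3) and 24.1 CPM (14.04 to 38.6) in cluster 12. Dmrta2 had 55.5 CPM (41.4 to 72.8) and 73.3 CPM (53.8 to 97.4) in cluster 6 and between 8.03 and 16.8 CPM in the other clusters. Emx1 went from 44.8 and 53.0 CPM in cluster 6 to between 7.09 and 14.4 CPM in the others. Emx2 stood apart from Emx1 in cluster 10, where it kept 38.0 CPM (22.5 to 60.1) and 56.2 CPM (37.3 to 81.2), against 69.4 and 68.6 CPM in cluster 6, and it had 3 and 4 UMIs in cluster 12.

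Otx2 ran the other way. It had 7 and 4 UMIs in cluster 6 (7.47 and 6.24 CPM), 25.3 CPM (13.1 to 44.3) and 62.2 CPM (42.3 to 88.3) in cluster 10, and 245 CPM (199.8 to 297) and 163 CPM (135 to 196) in cluster 12. Otx1 did not follow this order, with 50.2 and 48.3 CPM in cluster 6, 40.1 and 28.1 CPM in cluster 10 and 52.8 and 35.4 CPM in cluster 12, all with overlapping intervals. Nr2f2 had the same order as Otx2, with 82.2 and 57.7 CPM in cluster 6, 114 and 138 CPM in cluster 10 and 180 and 170 CPM in cluster 12. Nr2f1 was highest in cluster 6, with 511 CPM (466 to 559) and 390 CPM (343 to 441), against 267 to 317 CPM in the other clusters. The high Lhx2 and low Otx2 of the Dct, Creb5 and Tfap2c cluster, and the reverse in the Gm20757 and Cyp26b1 cluster, recurred wherever both clusters formed under other clustering settings, with Lhx2 at 169 to 212 CPM against 22.6 to 35.5 CPM and Otx2 at 7.09 to 19.2 CPM against 178 to 195 CPM. With nuclei thinned before clustering, the latter cluster merged with cluster 10 and had 51.6 CPM of Lhx2 and 131 CPM of Otx2.

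**Figure D2:**
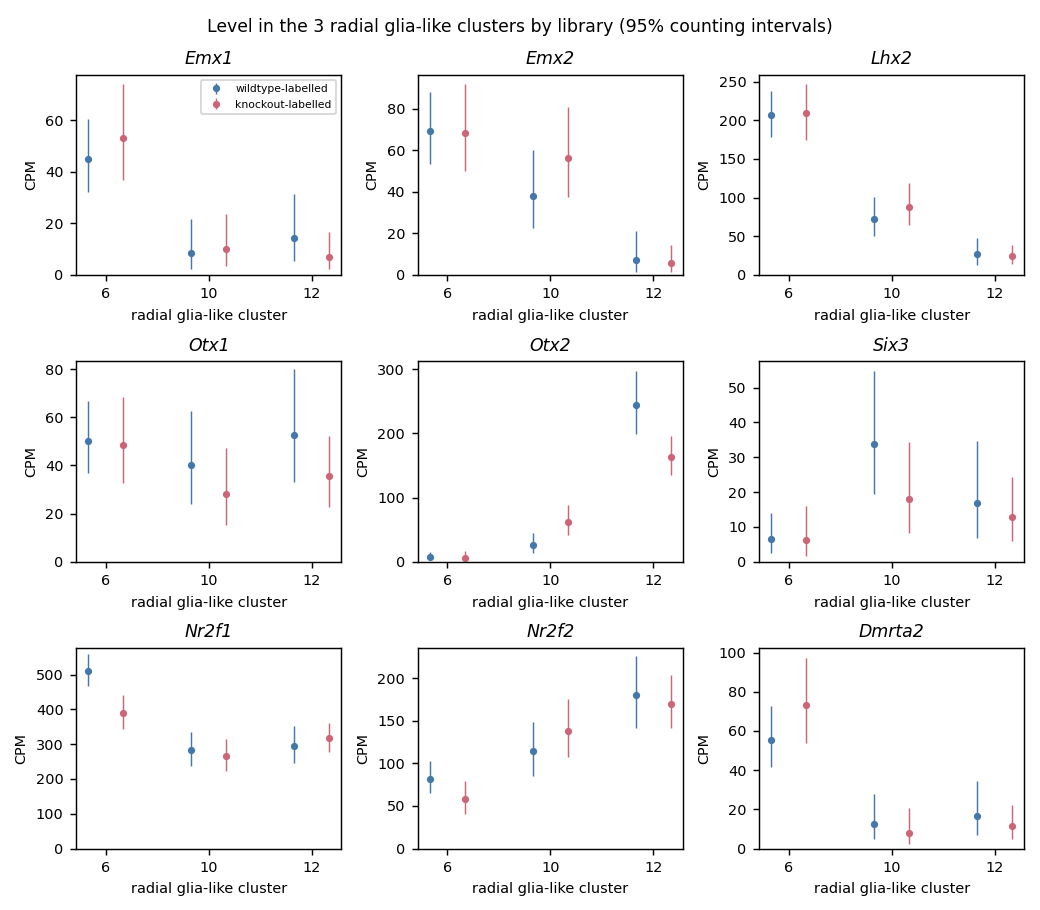
Level of each gene in CPM in radial glia-like clusters 6, 10 and 12 for the wildtype-labelled (blue) and knockout-labelled (red) library, with 95% counting intervals. Lhx2 steps down from 207 and 209 CPM in cluster 6 to 26.4 and 24.1 CPM in cluster 12, and Otx2 steps up from 7.47 and 6.24 to 245 and 163 CPM.

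The clusters contributed differently to the class in each library. Cluster 6 made up 49.5% of radial glia-like nuclei with the wildtype label and 35.0% with the knockout label, and cluster 12 made up 21.7% and 34.2%. Lhx2 in the radial glia-like class as a whole had a log2 ratio (knockout-labelled over wildtype-labelled, on the CPM scale) of -0.31 (-0.59 to -0.03), while within cluster 6 it was 0.01 (-0.32 to 0.34), within cluster 10 it was 0.30 (-0.38 to 0.99) and within cluster 12 it was -0.13 (-1.31 to 1.11). Otx2 in the class had a ratio of 0.30 (-0.06 to 0.65), while it was -0.26 (-2.48 to 1.72) within cluster 6, 1.29 (0.29 to 2.39) within cluster 10 and -0.59 (-0.99 to -0.19) within cluster 12. For both genes some clusters had the sign of the whole class and others the opposite sign.

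From intermediate progenitor-like cluster 5 through cortical excitatory neuron-like clusters 3, 4 and 8, Lhx2 and Emx1 stepped down. Cluster 3, with Unc5d, Svet1 and Sema3c among its leading genes, had 193 CPM (166 to 222) and 208 CPM (177 to 243) of Lhx2. Cluster 4, with Bcl6 and Tiam2 among its leading genes, had 86.8 CPM (70.8 to 105) and 92.6 CPM (73.7 to 115). Cluster 8, led by Tg and Dync1i1, had 40.1 CPM (28.1 to 55.5) and 33.0 CPM (21.9 to 47.6). In each library clusters 3, 4 and 8 were separated in Lhx2 by more than counting error. Cluster 5, at 274 CPM (238 to 313) and 255 CPM (216 to 298), was separated from cluster 3 under the wildtype label only. Emx1 followed the same order, with 36.3 and 44.8 CPM in cluster 3, 18.5 and 27.9 CPM in cluster 4 and 4.45 and 15.3 CPM in cluster 8. Its intervals overlapped between neighbours, except clusters 5 and 3 and clusters 4 and 8 under the wildtype label. Dmrta2 went from 58.1 and 43.0 CPM in cluster 5 to 21.8 and 29.0 CPM in cluster 3 and 10.1 and 4.46 CPM in cluster 4, and was no lower in cluster 8, at 11.1 and 8.24 CPM. Emx2 had 21.8 and 29.0 CPM in cluster 3, 13.5 and 10.0 CPM in cluster 4 and 6.68 and 10.6 CPM in cluster 8. Nr2f1 remained high in cluster 3, at 427 and 353 CPM, and was lower in clusters 4 and 8, at 203 and 135 CPM and at 121 and 117 CPM. Cluster 14, led by Slit3 and Tafa1 and named from 3 of 11 cortical markers only, broke the order with 474 CPM (422 to 532) and 317 CPM (268 to 372) of Nr2f1. Emx1 was not lower there than in cluster 8 either. Over both libraries together it had 22.0 CPM (14.1 to 32.8) in cluster 14, against 9.73 CPM (5.67 to 15.6) in cluster 8, with overlapping intervals. By library these rested on 7 and 17 UMIs in cluster 14 and 4 and 13 UMIs in cluster 8. The clusters are groups of nuclei at the same collection and no order in time was measured.

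**Figure D3:**
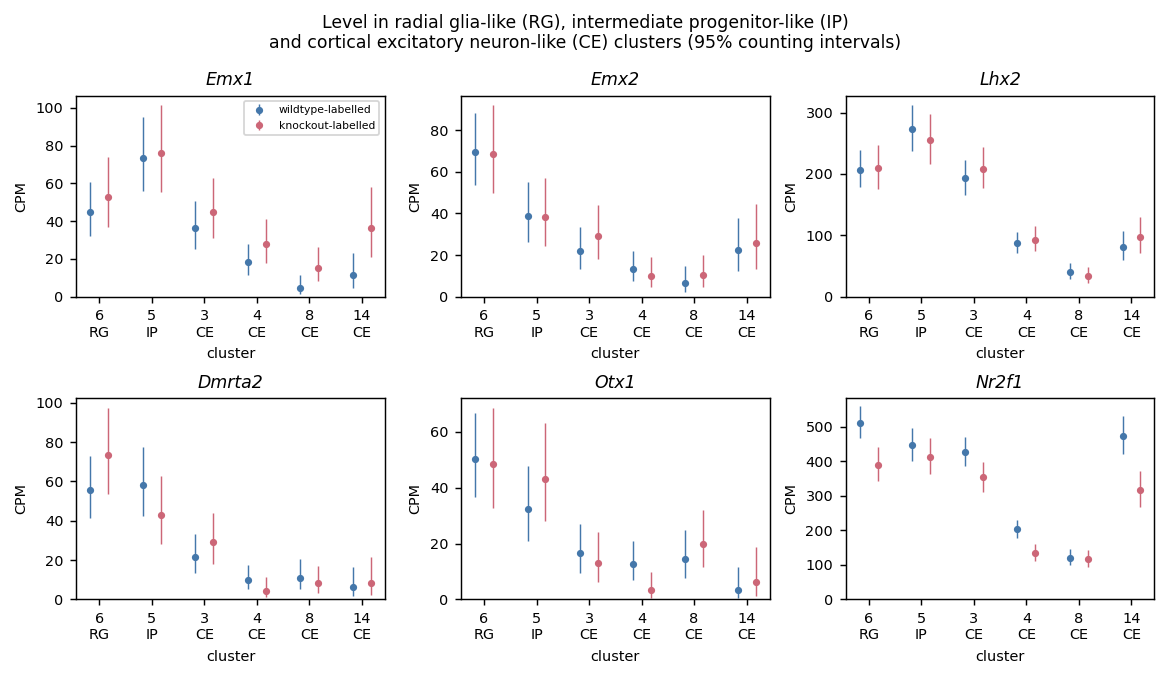
Level in CPM of 6 of the genes in radial glia-like cluster 6, intermediate progenitor-like cluster 5 and cortical excitatory neuron-like clusters 3, 4, 8 and 14 for the wildtype-labelled (blue) and knockout-labelled (red) library, with 95% counting intervals. Lhx2 steps down from 274 and 255 CPM in cluster 5 to 40.1 and 33.0 CPM in cluster 8, and Nr2f1 is high again in cluster 14.

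The relatives within each gene family were set against each other by the share of the pair's UMIs that came from the second gene. Capture of the relatives may be unequal, so a share is compared across classes and not read as which gene is more abundant. Emx2 made up 34.5% (24.6 to 45.4) and 33.3% of Emx UMIs in intermediate progenitor-like nuclei, 62.3% (53.7 to 70.4) and 63.3% in radial glia-like nuclei and 93.0% (80.9 to 98.5) and 93.8% in midbrain and hindbrain inhibitory neuron-like nuclei. In Cajal-Retzius cell-like nuclei the Emx2 share was 100% (85.2 to 100, from 23 UMIs) and 87.9%. Otx2 made up 19.4% (7.5 to 37.5) and 33.3% of Otx UMIs in intermediate progenitor-like nuclei, 57.9% (50.9 to 64.7) and 68.2% in radial glia-like nuclei, and 97.5% and 96.8% in the inhibitory class. Nr2f2 made up 13.7% (10.7 to 17.2) and 12.6% of Nr2f UMIs in thalamic neuron-like nuclei, 23.0% and 22.3% in cortical excitatory neuron-like nuclei and 73.2% (57.1 to 85.8) and 68.9% in Cajal-Retzius cell-like nuclei. In each pair the lowest and the highest of these shares were separated by more than counting error in both libraries.

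**Figure D4:**
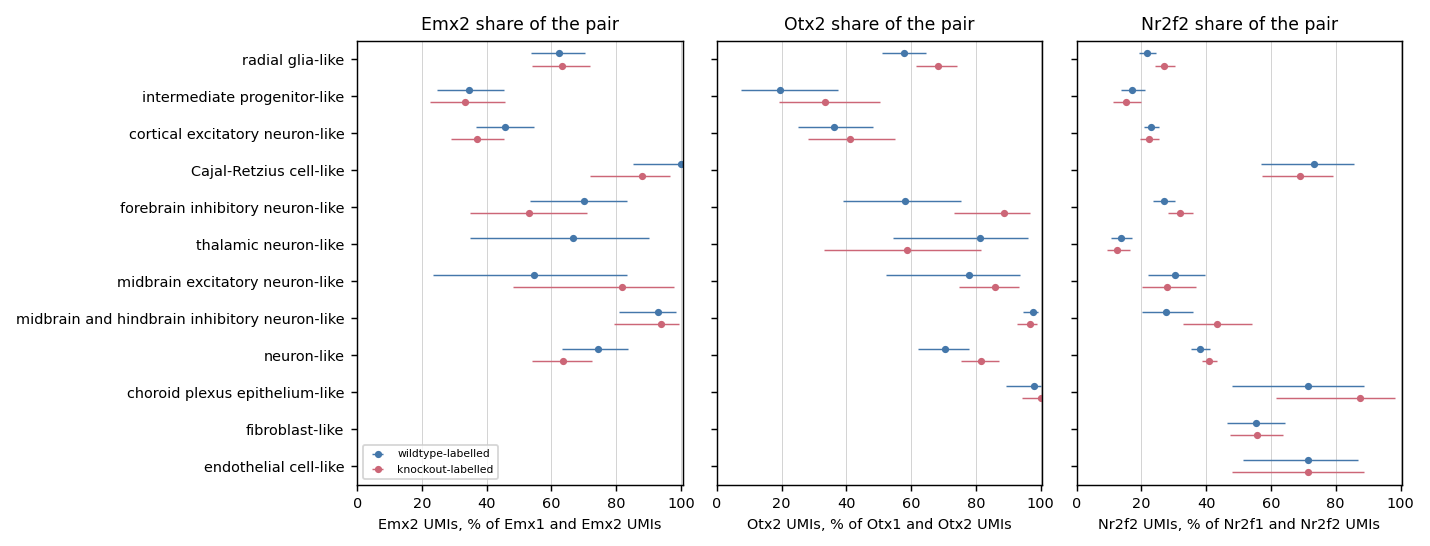
Share of UMIs from the second gene of each family (Emx2 of Emx1 and Emx2, Otx2 of Otx1 and Otx2, Nr2f2 of Nr2f1 and Nr2f2; horizontal axis in %) by cell class and library, with 95% binomial intervals; values from fewer than 10 UMIs are not drawn. In the wildtype-labelled library the Emx2 share is 34.5% in intermediate progenitor-like, 93.0% in midbrain and hindbrain inhibitory neuron-like and 100% in Cajal-Retzius cell-like nuclei.

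For each gene, the 3 genes with the most similar levels across 22 clusters were found among 13255 genes, by the Pearson correlation of log2(CPM + 10) in each library, ranked by the lower of the 2 values. These correlations describe clusters that share libraries, depth and sources and carry no test. Emx1 and Lhx2 were in each other's list (r = 0.75 and 0.72), as were Emx2 and Dmrta2 (0.83 and 0.74). The least alike of all pairs of the 9 were Lhx2 and Six3 (-0.34 and -0.37). Emx1 was also listed with Rnd2 (0.73 and 0.74), a GTPase of migrating cortical neurons, and Masp1 (0.74 and 0.71). Dmrta2 was listed with Eomes (0.76 and 0.75), the marker of intermediate progenitors, and Nfix (0.68 and 0.70). Six3 was listed with Sp8 (0.70 and 0.62), a factor of ventral forebrain progenitors and interneurons, and Smim14 (0.64 and 0.58).

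The other genes listed were in part positional neighbours. Of 27 genes listed, 9 lay within 100 kb of their member. They were Emx2os beside Emx2 (0.77 and 0.87), Gm13584 within Lhx2 (0.73 and 0.80), Six3os1 across Six3 (0.88 and 0.78), A830082K12Rik across the start of Nr2f1 (0.84 and 0.92), Otx2os1 (0.97 and 0.93) and Gm49156 (0.96 and 0.93) at Otx2, and Gm28258 (0.73 and 0.75), B130024G19Rik (0.64 and 0.78) and Gm44532 (0.61 and 0.64) at Nr2f2. Gm534 (0.95 and 0.93), 195 kb from Otx2, and E330013P04Rik (0.75 and 0.68), 676 kb from Emx2, lay farther off on the same chromosome. Emx2os, Gm13584, Six3os1, A830082K12Rik, Otx2os1 and B130024G19Rik overlap their member on the opposite strand, and whether counting used the strand is not given in the sources used here, so reads could be divided between them in a way that cannot be checked. Lists from other chromosomes were Ubxn2a for Lhx2 (0.74 and 0.72), Rlbp1, AW047730 and Hnrnpr for Otx1 (0.77 and 0.78, 0.77 and 0.76, and 0.76 and 0.73), and Sh3rf3 and Rcn2 for Nr2f1 (0.65 and 0.61, and 0.74 and 0.61).

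Between the libraries, over all kept nuclei, 0 of 9 genes were past 1.5-fold in either direction, where 2.72% of 15528 genes with at least 100 UMIs were. The nuclear receptor Nr2f1 had 4886 and 4271 UMIs, 284 and 215 CPM, a log2 ratio of -0.40 (-0.46 to -0.34). Otx1 had 281 and 235 UMIs and a ratio of -0.47 (-0.72 to -0.21). Emx2 (430 and 396 UMIs, -0.33), Dmrta2 (315 and 291 UMIs, -0.32), Lhx2 (1725 and 1666 UMIs, -0.26) and Emx1 (308 and 298 UMIs, -0.26) were lower in the knockout-labelled library by less. Six3 (252 and 292 UMIs) and Nr2f2 (1850 and 2144 UMIs) had ratios of 0.00, and Otx2 (716 and 773 UMIs) of -0.10 with an interval that included 0. Over all genes the median ratio was -0.01 and the 5th and 95th percentiles were -0.31 and 0.42, so 4 members, Nr2f1, Otx1, Emx2 and Dmrta2, lay below the 5th percentile.

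The libraries differed in their mix of classes at the same time, and the ratios moved when each class was given the same weight in both. The weights were applied to typed nuclei, which leave out the 8% with the highest doublet scores. Emx1 then had a ratio of 0.11, against -0.15 in the same nuclei unweighted and -0.26 over all kept nuclei. Lhx2 had a ratio of -0.13, against -0.25 in typed nuclei unweighted. Otx2 turned from -0.06 in typed nuclei unweighted to 0.08. Nr2f1, at -0.31, Otx1, at -0.33, Dmrta2, at -0.27, and Emx2, at -0.24, kept a lower value in the knockout-labelled library. Six3 went from -0.07 in typed nuclei unweighted to -0.15, and Nr2f2 from -0.03 to -0.10. Whether the remaining differences come from genotype, from which parts of each brain entered the preparation or from another difference between the libraries cannot be told apart with 1 library per genotype.

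**Figure D5:**
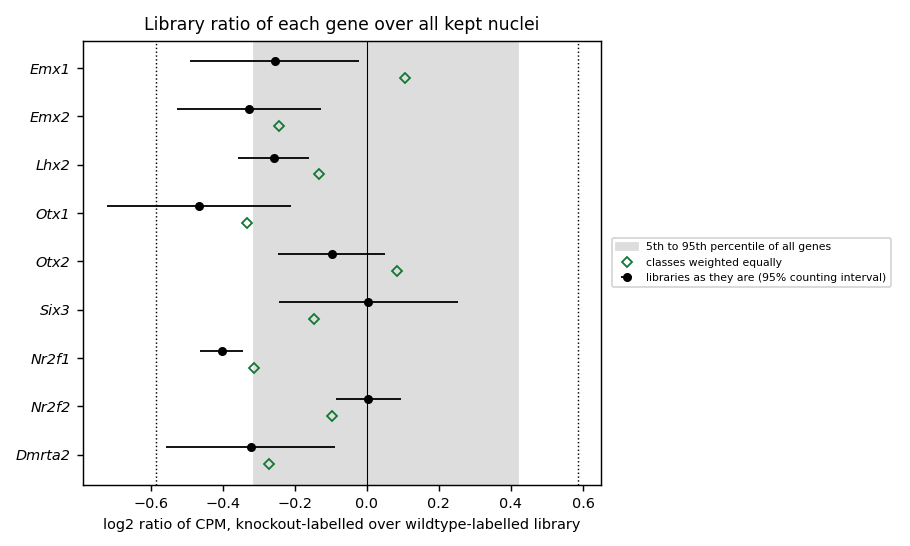
Log2 ratio of CPM, knockout-labelled over wildtype-labelled library, for each gene over all kept nuclei (black, with 95% counting interval) and with classes weighted equally (green diamonds); the grey band runs from -0.31 to 0.42, the 5th to 95th percentile of all genes, and dotted lines mark 1.5-fold. Every black point lies inside the dotted lines. Emx1 is at -0.26 over all kept nuclei and at 0.11 with equal weights, which were applied to typed nuclei only.

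The genes of neighbouring domains gave the regional setting of these values. Of 14 forebrain partner genes, 9 had at least 100 UMIs, and 1 was past 1.5-fold higher (background 2.12%) and 1 lower (background 0.605%), with a median log2 ratio of -0.31. Gli3, a mediator of hedgehog signalling, had the most UMIs of that list, 2797 and 2605 (-0.31). Nr2e1, at -0.60, and Nkx2-1, at 0.85, were the genes past the fold. Of 14 midbrain and hindbrain patterning genes, 10 had enough UMIs, 8 were past 1.5-fold with the higher level under the knockout label and 0 with the lower, with a median of 0.98. Irx2 had 220 and 414 UMIs (0.70) and Lmx1a had 267 and 331 (0.10), the most of that list, and the largest ratio was that of Pax2, with 13 and 241 UMIs. Of 6 relatives of the 9 genes, 3 had enough UMIs, with Lhx9 at -0.03, Nr2f6 at 0.28 and Dmrt3 at -0.64. Their part in the members' ratios was not tested.

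Within classes, 65 of 108 gene and class pairs had at least 20 UMIs, and 13 of them (20.0%) were past 1.5-fold, 6 higher and 7 lower in the knockout-labelled library. Over all genes and the same classes the shares were 16.1% in either direction, 8.39% higher and 7.66% lower, so the members were near the background. Under the knockout label Nr2f1 was lower in 8 of 10 classes and in 15 of 20 clusters with enough UMIs. Its ratios were -0.29 (-0.45 to -0.14) in radial glia-like, -0.43 (-0.57 to -0.28) in cortical excitatory neuron-like and -0.62 (-1.14 to -0.11) in midbrain and hindbrain inhibitory neuron-like nuclei, and the neuron-like class stood at -0.33 (-0.48 to -0.19). The exceptions among classes were fibroblast-like nuclei, at 0.08, and Cajal-Retzius cell-like nuclei, at 0.61 (-0.49 to 1.79). Within radial glia-like nuclei Nr2f1 was at -0.39 (-0.62 to -0.17) in cluster 6, -0.09 in cluster 10 and 0.10 in cluster 12, and cluster 6, with the highest Nr2f1, made up a smaller share of the class under the knockout label (35.0% against 49.5%).

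Under the knockout label Emx1 was higher in 4 of 5 classes with enough UMIs, most in cortical excitatory neuron-like nuclei, with 68 and 89 UMIs, 18.5 and 29.9 CPM and a ratio of 0.69 (0.22 to 1.17). That class held 1469 and 1051 nuclei, and Emx1 was higher in each of its clusters, from 0.31 in cluster 3 to 1.78 (0.09 to 3.85) in cluster 8, which rested on 4 and 13 UMIs. Otx1 was lower in neuron-like nuclei, with 41 and 33 UMIs and a ratio of -1.28 (-1.99 to -0.58), as was Emx2 with 58 and 70 UMIs and -0.69 (-1.22 to -0.17). Otx2 was higher in midbrain excitatory neuron-like nuclei, with 14 and 54 UMIs, 28.6 and 70.9 CPM and a ratio of 1.31 (0.44 to 2.27). In the same class Lhx2 had 79 and 178 UMIs, a ratio of 0.53, and En1, a midbrain gene, 1 and 21 UMIs. These class values rest on names rebuilt from markers and on 1 library each.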

How the data were processed

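Raw UMI counts per gene and nucleus were deposited by the authors, and the file headers name Cell Ranger 6.1.1; the submitters' processing notes list Cell Ranger 3.0.1, STAR and GRCm39. Whether intronic reads were counted is not given in the sources used here. The deposited matrices held 19048835 and 22504908 UMIs over 9763 and 10811 barcodes. Counts were summed per library and class and scaled to CPM. Intervals are exact Poisson (levels) or exact Clopper-Pearson binomial (shares, and ratios through the share of both libraries' UMIs), at 95%. Only the ratio intervals were tested on simulated data. Those counts were drawn with Poisson error alone, so the check says nothing of variation between nuclei or libraries. Library totals used all kept nuclei and class values the typed nuclei.

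Scrublet in scanpy 1.11.5 called 0 doublets in each library and is taken to have failed, so nuclei with the highest 8% of scores were removed, 535 and 534 nuclei. Counts were scaled to 10000 per nucleus and log-transformed; 2000 variable genes per library, 30 principal components, 15 neighbours and Leiden clustering (leidenalg 0.10.2, resolution 1) followed, without the 9 genes, their overlapping neighbours, Cav1, mitochondrial and sex-linked genes. A name needed at least 3 markers at 2-fold over other clusters and 1.5-fold in each library; where several classes passed, the one with more passing markers (then the larger share of its list) was taken, dividing cells last. That name was dropped, with no other class tried, if the 10 leading genes held more markers of another list, if nuclei were very shallow with no own marker among those genes, or, for erythroid cells, below 50% haemoglobin UMIs. Such clusters became neuron-like with at least 3 general neuron markers at 2-fold over non-neuronal clusters and no non-neuronal marker among the leading genes, and otherwise stayed unnamed. These naming thresholds, and the CCAAT and GC box motifs, were chosen after the data were seen. Names are not the authors' annotation. All 9 genes were named in the text, with the 3 most similar genes for each and up to 2 genes with most UMIs from each list, some items not being reported here; Nkx2-1, Nr2e1, Pax2, Pax6, Dmrt3, En1 and the cluster-leading genes were named after their values were seen. The members and lists were chosen with earlier results of these data known. By Ensembl identifier, 54749 features (98.8%) were found in GENCODE M39. Alternatives were other gene minimums, doublets removed or kept, other scalings, weightings, UMI minimums and clusterings.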

Additional observations from a re-analysis of the deposited data

Results flagged for a closer look

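Lhx2 and Otx2 had library ratios on opposite sides of 0 in different classes, each with a counting interval that left out 0; the difference between classes was not tested. The log2 ratio of Lhx2 was 0.53 (0.14 to 0.93) in midbrain excitatory neuron-like nuclei, -0.31 (-0.59 to -0.03) in radial glia-like nuclei and -0.55 (-0.99 to -0.12) in thalamic neuron-like nuclei. The log2 ratio of Otx2 was 1.31 (0.44 to 2.27) in midbrain excitatory neuron-like nuclei, 0.61 (0.05 to 1.19) in choroid plexus epithelium-like nuclei and -0.34 (-0.64 to -0.04) in midbrain and hindbrain inhibitory neuron-like nuclei.

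The barcodes left out for few genes or a high mitochondrial share, 3077 and 4131 in number, also held UMIs of all 9 genes in both libraries. Summed over both, they had 1046 UMIs of Nr2f1, 798 of Nr2f2, 624 of Lhx2, 166 of Emx2, 152 of Six3, 139 of Otx2, 127 of Dmrta2, 115 of Emx1 and 54 of Otx1.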

How the results depend on the processing

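The count of 0 of 9 genes past 1.5-fold over all nuclei stayed 0 under all 7 alternatives. Of these, equal weights per cluster was chosen after the data were seen. Another, a minimum of 20 UMIs per gene, could not change the count, since all 9 genes had more UMIs than that. With that minimum the background share past 1.5-fold was 9.26% of 21131 genes. No test or p-value exists for the count of 0. The count of 13 of 65 gene and class pairs past 1.5-fold became 7 of 52 with at least 50 UMIs per pair. Under the other settings it ranged from 9 to 14. The share of all gene and class pairs past 1.5-fold was not computed under these settings, so these counts have no background. The number of genes with the same highest class ranged from 5 to 7. Of 54 recomputed ratios of single genes, 45 stayed inside the counting interval and 9 left it, all under equal weighting of classes or clusters. Those weightings also left out the nuclei with the highest doublet scores. With clusters weighted equally, Emx1 was at 0.18, Lhx2 at -0.07, Nr2f1 at -0.27 and Nr2f2 at -0.11. No paired analysis was possible because each genotype has 1 library, and for the same reason no library could be left out. Depth limits Emx1, Otx1, Six3 and Dmrta2 most, which had at most 315 UMIs per library.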
